A study of Mus musculus with 18 samples.

Results

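The genes described here are 41 interferon-stimulated genes chosen by name. All probes that the platform annotation assigns to them were read. Of the 41 genes, 40 had a probe (76 probes among 45121), and 36 had a probe past the detection filter and were tested beside 13106 named genes in all. Ifi44 was not analysed here, and Ifih1, Oas1a, Oas3 and Xaf1 had probes that did not pass the filter. Rigi, the RNA sensor RIG-I, was found under its older symbol Ddx58.

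Interferons are secreted alarm proteins that cells release when they sense viral or misplaced nucleic acid. Type I interferon binds a receptor of IFNAR1 and IFNAR2, the kinases JAK1 and TYK2 relay the signal, and the complex ISGF3, which includes STAT2 and IRF9, binds interferon-stimulated response elements in promoters. Interferon gamma acts instead through gamma-activated sites. The induced genes encode antiviral effectors, sensors and factors that feed back on the pathway. Fibroblasts are responsive cells that can also make interferon beta.

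The cells were mouse embryonic fibroblasts of a mixed BL6/129/Sv background, derived at E10.0 and immortalized by the 3T3 protocol. KO cells were jnk1-/-jnk2-/- and lacked the stress kinases JNK1 and JNK2, and wt cells were their wildtype counterparts. All grew on culture inserts in the same FAD medium with calcium-depleted serum, insulin, hydrocortisone, cholera toxin, adenine and human EGF, either before co-culture (day 0) or above differentiating primary human epidermal keratinocytes, with the inserts exchanged every second day (days 2, 4 and 6). KO and wt cells each gave 1 day 0 array, 2 arrays for day 2, 2 for day 4 and 4 for day 6, 18 single-colour Illumina bead arrays in all, each with RNA of 1, 2 or 3 pooled inserts. The labels name no separate lines or embryos behind the arrays of a genotype, so p-values measure the spread between inserts of what may be 1 line each, and a difference between the lines cannot be told apart from an effect of the deletion.

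Values are normalized log2 signals per array, on which a difference of 1 is a 2-fold change of signal. The lowest signal that counted as detected was 4.52 to 4.75, depending on the array, and detection follows the deposited p-value, which is not tied to the signal alone, so that some undetected values lie above that level. A gene that was not detected has only an upper bound. The number of arrays limits the precision. KO minus wt differences come from a limma fit over 18128 features with Benjamini-Hochberg adjustment over all of them, and "past the threshold" means an adjusted p under 0.05. The targeted gene Mapk9, which encodes JNK2, read 4.51 to 5.60 on the 9 KO arrays and 10.07 to 10.49 on the 9 wt arrays, while the Mapk8 probe (JNK1) read 5.71 to 6.36 on KO arrays and 5.44 to 6.47 on wt arrays. Whether that Mapk8 probe lies in the deleted stretch is not given in the sources used here. Of 10 fibroblast markers, all had a tested probe and 8 were detected on all 18 arrays, Col1a2 and Thy1 being the 2 that were not. Both were lower in KO cells, as given below with the other fibroblast markers. The 6 arrays of day 6 replicates 2, 3 and 4 of both genotypes carry another kind of detection p-value and had a mean intensity of 581 to 653, against 392 to 482 on the other 12; they are called the second processing set and the others the first.

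Wildtype day 6 replicate 2 stood apart from the other wt arrays in these genes. Its mean signal over the 36 genes was 7.18, against 8.42, 8.73 and 9.19 on the other 3 wt day 6 arrays, and 6.38 on the wt day 0 array. KO day 6 replicate 2 stood apart in the other direction, with a mean of 7.40 against 6.78 to 7.07 on the other KO day 6 arrays. It was the highest KO day 6 array for 22 of the 36 genes (61.1%), against 22.3% of all features. On KO day 6 replicate 2 the signal of Dlk1, a gene near background on the other 8 KO arrays (4.18 to 4.42) and at 13.76 to 14.69 on wt arrays, was 9.39. Where leaving out either array changed a gene's day 6 call or its call over the mean of the days, the value without it is given beside the gene.

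Interferon-stimulated genes were lower in KO fibroblasts on every day of co-culture. At day 2, 23 of the 36 genes were lower and 2 higher in KO cells, where 10% of all features were lower and 9.97% higher. At day 4, 21 were lower and 2 higher, against 9.28% and 9.79% of all features. At day 6, 22 were lower and 3 higher, against 13.7% and 14.8%. Over the mean of days 2, 4 and 6, 27 were lower and 2 higher, against 18% and 20% of all features. Among those lower, Trim25, Irf7, Rsad2, Cmpk2, Oasl1, Rtp4 and Mx1 were detected on no KO co-culture array. They passed the detection filter through wt arrays and could hardly have been called higher in KO cells. The same filter applied to all features. The median KO minus wt difference of the 36 genes was -1.73 at day 2, -1.47 at day 4, -1.09 at day 6 and -1.36 over the mean of the days, while the medians over all features were 0.03, 0.03, 0.02 and 0.03.

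Some of these counts moved with the arrays used. Without wt day 6 replicate 2, 27 genes were lower at day 6 (12.1% of all features), and without KO day 6 replicate 2, 21 were (13.1%). Over the mean of the days, 28 were lower without that wt array (17.4% of all features) and 27 without that KO array (17.8%). Within the second processing set alone, which holds that wt array, 13 were lower at day 6 (12.3% of all features). With 1 array left on a side at day 2, 14 genes were lower without wt replicate 1 (6.91% of features), 15 without KO replicate 1 (7.07%) and 15 without KO replicate 2 (6.63%). At day 4, 13 were lower without wt replicate 2 (6.29%) and 13 without KO replicate 2 (6.27%). Over the mean of the days, 26 of the 29 genes past the threshold stayed past it in every alternative setting that allowed this comparison. Rigi, Oas1b and Mx1 did not. The second processing set, which holds day 6 arrays only, did not allow it.

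**Figure D1:**
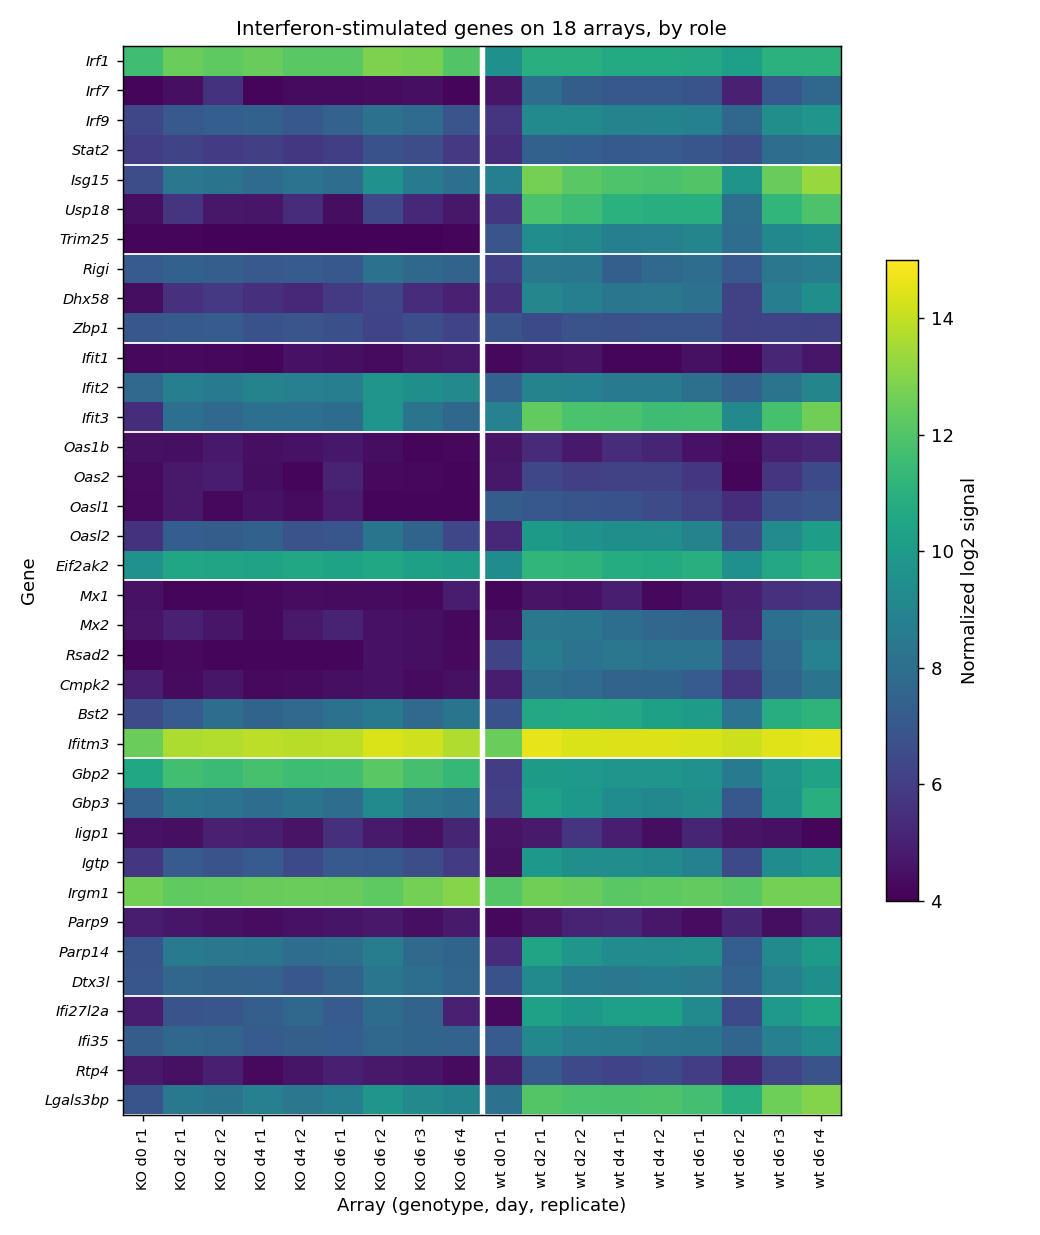
Normalized log2 signal (colour) of the 36 tested genes, grouped by role between white lines, on the 18 arrays, with the 9 KO arrays left of the 9 wt arrays and days running left to right within each genotype. The co-culture columns of wt cells are brighter than day 0 for most genes, wt day 6 replicate 2 (d6 r2) is darker than its neighbours, and Gbp2 and Irf1 are brighter in KO cells.

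**Figure D2:**
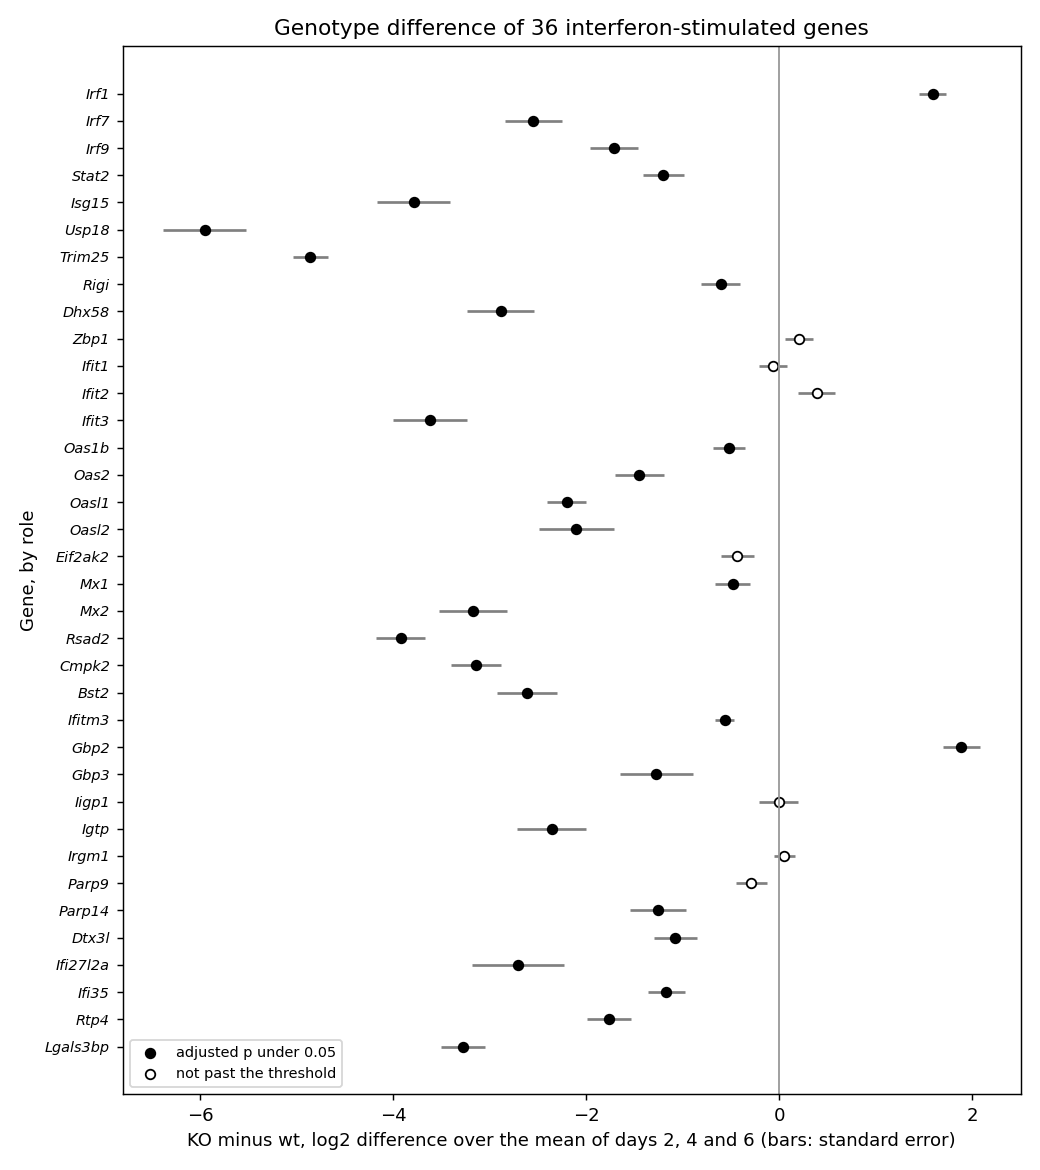
KO minus wt log2 difference over the mean of days 2, 4 and 6 for each of the 36 genes (points, with standard errors as bars), ordered by role. Usp18 lies farthest left at -5.95 and Gbp2 farthest right at 1.89; 7 genes drawn as open points did not pass the threshold.

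The 3 genes of the ISG15 pathway were all lower in KO cells, and Usp18 and Trim25 had the largest fitted differences of the 36 genes. ISG15 is a ubiquitin-like protein that is attached to other proteins after interferon, USP18 removes it and also blocks the type I receptor, and TRIM25 is a ubiquitin ligase that activates RIG-I. Usp18 read 4.45 on the day 0 array, then 5.67 and 4.70 (day 2), 4.66 and 5.40 (day 4) and 4.41, 6.36, 5.24 and 4.73 (day 6) in KO cells. In wt cells Usp18 read 5.73 on the day 0 array, then 11.90 and 11.60 (day 2), 11.03 and 10.93 (day 4) and 10.93, 8.06, 11.23 and 11.91 (day 6). The KO probe was detected on 4 of 8 co-culture arrays and the wt probe on all 8, the groups did not overlap, and the mean difference was -5.95 ± 0.43 (SE; adjusted p 8.57e-10). Even wt day 6 replicate 2, the lowest wt co-culture array, lay above the highest KO array for Usp18.

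Isg15 itself read 6.59 on the day 0 array, then 8.42 and 8.25 (day 2), 7.84 and 8.19 (day 4) and 7.91, 9.56, 8.55 and 8.00 (day 6) in KO cells. The wt arrays read 8.76 on the day 0 array, then 12.72 and 12.17 (day 2), 11.97 and 11.84 (day 4) and 12.03, 9.68, 12.44 and 13.31 (day 6). KO signal was higher at each day of co-culture than at day 0 but stayed below every wt co-culture array, with a mean difference of -3.79 ± 0.38 (SE; adjusted p 9.55e-08), or 13.8-fold. The gap between the highest KO array (9.56) and wt day 6 replicate 2 (9.68) was small. Without that array the day 6 difference was -4.09 ± 0.32 (SE), against -3.36 ± 0.51 with it.

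Trim25 was not detected on any KO array, where its brightest probe read 4.10 to 4.14 in co-culture and 4.14 at day 0. In wt cells it read 6.88 on the day 0 array, then 9.40 and 9.19 (day 2), 8.74 and 8.78 (day 4) and 9.02, 7.94, 9.14 and 9.43 (day 6). Its signal was at least 20.4-fold lower in KO cells over the mean of the days (adjusted p 5.22e-14), a lower bound because the KO signal lay below detection. A second, dim Trim25 probe gave a difference of -0.29 (adjusted p 0.231), so the 2 probes of this gene disagree.

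Among the signalling and transcription factors, Irf7, Irf9 and Stat2 were lower and Irf1 higher in KO cells. IRF7 is the factor that amplifies type I interferon production, IRF9 and STAT2 are subunits of ISGF3, and IRF1 is an interferon gamma-responsive factor. Irf7 was detected on no KO array, with 4.18 on the day 0 array, then 4.44 and 5.59 (day 2), 4.21 and 4.34 (day 4) and 4.33, 4.38, 4.45 and 4.21 (day 6). The wt cells had 4.67 on the day 0 array, then 7.92 and 7.23 (day 2), 7.05 and 7.03 (day 4) and 6.87, 5.03, 7.01 and 7.70 (day 6). This is a difference of at least 4.86-fold (adjusted p 8.02e-07), and KO day 2 replicate 2 was the highest KO array at 5.59, above wt day 6 replicate 2 at 5.03.

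Irf9 had a median of 7.35 on KO co-culture arrays (6.88 to 8.14) and 9.10 on wt ones (7.69 to 9.74), a difference of -1.71 ± 0.24 (SE; adjusted p 1.04e-05). Stat2 had a median of 6.07 (5.77 to 6.76) in KO cells and 7.23 (6.66 to 8.14) in wt cells, a difference of -1.20 ± 0.22 (SE; adjusted p 0.000146). For both genes the groups overlapped only through wt day 6 replicate 2.

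Irf1 ran the other way. It read 11.63 on the day 0 array, then 12.52 and 12.27 (day 2), 12.45 and 12.20 (day 4) and 12.21, 12.85, 12.76 and 12.02 (day 6) in KO cells. Its wt signal was 9.51 on the day 0 array, then 10.89 and 10.96 (day 2), 10.74 and 10.74 (day 4) and 10.65, 10.19, 11.03 and 11.08 (day 6). Every KO co-culture array lay above every wt array, and the mean difference was 1.59 ± 0.14 (SE; adjusted p 1.65e-08). The 4 other Irf1 probes past the filter were higher in KO cells too, by 0.78 to 1.87.

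**Figure D3:**
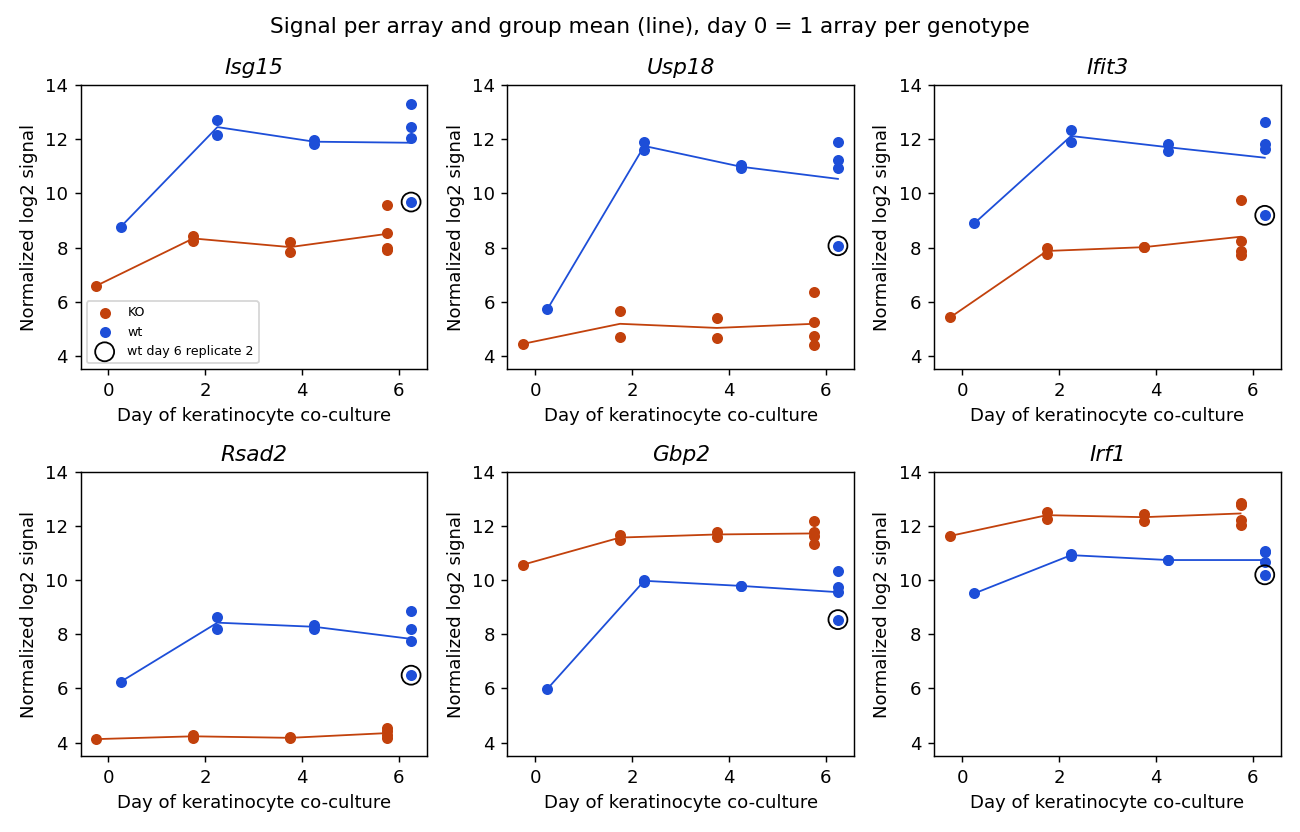
Normalized log2 signal per array (points) against the day of co-culture, with lines through group means, KO orange and slightly left of wt blue, for Isg15, Usp18, Ifit3, Rsad2, Gbp2 and Irf1. The black ring marks wt day 6 replicate 2, which lies below the other wt day 6 arrays in every panel; Gbp2 and Irf1 are the panels with KO on top.

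To show what the promoters of the genes with the largest and the opposite differences hold, the 300 bases around their start sites (250 before to 50 after, RefSeq, GRCm38.p6) are given 5′ to 3′ on the gene's own strand. Usp18, which had the largest difference of all, had no promoter entry and is not shown. Capitals mark a GAAA block followed after any 2 bases by another GAAA block on the same strand (read as TTTC blocks on the opposite strand), which is the core of the interferon-stimulated response element, and TTCNNNGAA, the core of the gamma-activated site. The TTCNNNGAA search was added after the sequences had been seen.
Isg15 (chr4:156200769-156201068, minus strand): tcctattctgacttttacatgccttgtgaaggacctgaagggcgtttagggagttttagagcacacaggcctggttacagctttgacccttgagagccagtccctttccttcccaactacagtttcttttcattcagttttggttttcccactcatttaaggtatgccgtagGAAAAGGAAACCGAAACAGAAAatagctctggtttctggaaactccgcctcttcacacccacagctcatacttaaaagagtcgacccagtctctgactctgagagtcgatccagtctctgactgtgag
Ifit3 (chr19:34583279-34583578, plus strand): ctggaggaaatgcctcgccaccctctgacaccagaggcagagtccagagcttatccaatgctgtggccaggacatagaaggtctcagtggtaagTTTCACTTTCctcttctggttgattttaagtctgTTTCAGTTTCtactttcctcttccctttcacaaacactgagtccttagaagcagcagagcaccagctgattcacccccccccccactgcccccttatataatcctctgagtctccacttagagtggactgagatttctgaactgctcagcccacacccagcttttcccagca
Rsad2 (chr12:26456403-26456702, minus strand): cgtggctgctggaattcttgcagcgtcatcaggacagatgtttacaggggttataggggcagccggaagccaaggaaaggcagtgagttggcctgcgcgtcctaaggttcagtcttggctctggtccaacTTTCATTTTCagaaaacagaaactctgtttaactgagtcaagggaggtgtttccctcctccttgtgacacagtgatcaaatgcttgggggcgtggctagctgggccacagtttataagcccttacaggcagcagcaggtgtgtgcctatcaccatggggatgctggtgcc
Trim25 (chr11:88999153-88999452, plus strand): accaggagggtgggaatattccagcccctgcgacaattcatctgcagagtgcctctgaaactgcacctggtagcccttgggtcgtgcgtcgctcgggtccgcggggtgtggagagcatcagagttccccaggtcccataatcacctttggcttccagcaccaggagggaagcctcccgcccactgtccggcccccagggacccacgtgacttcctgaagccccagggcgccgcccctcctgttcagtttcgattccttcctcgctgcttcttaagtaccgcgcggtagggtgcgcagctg
Gbp2 (chr3:142620413-142620712, plus strand): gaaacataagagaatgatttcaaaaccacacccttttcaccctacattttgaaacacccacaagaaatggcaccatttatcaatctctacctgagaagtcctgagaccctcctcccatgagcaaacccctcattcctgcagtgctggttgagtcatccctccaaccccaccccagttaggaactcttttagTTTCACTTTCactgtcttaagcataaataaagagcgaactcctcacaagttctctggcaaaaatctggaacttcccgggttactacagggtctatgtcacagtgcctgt
Irf1 (chr11:53769764-53770063, plus strand, the upstream window of 2): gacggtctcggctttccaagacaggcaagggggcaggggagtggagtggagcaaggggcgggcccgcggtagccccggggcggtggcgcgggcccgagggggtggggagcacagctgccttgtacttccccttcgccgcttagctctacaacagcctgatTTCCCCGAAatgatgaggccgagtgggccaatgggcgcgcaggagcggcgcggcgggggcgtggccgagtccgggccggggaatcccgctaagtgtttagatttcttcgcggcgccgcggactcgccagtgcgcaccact

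The Isg15 window holds 3 overlapping copies of the paired GAAA blocks, which start at -78, -72 and -66 from the start site, and the Ifit3 window holds 2 copies on the opposite strand, at -156 and -122. The Rsad2 and Gbp2 windows hold 1 each, at -120 and -59. No copy is in these windows of Trim25 and Irf1, and the Irf1 window has TTCCCCGAA at -90. Of the 29 genes of the list with a promoter entry, 16 (55.2%) held the paired blocks on either strand, against 1079 of 27025 genes with an entry (3.99%). Among genes with an entry the share was 9 of 18 for those lower in KO cells, 1 of 2 for those higher, and 3 of 4 for those tested and not past the threshold. TTCNNNGAA was in the windows of 8 of the 29 (27.6%), Irf1, Bst2, Ifitm3, Igtp, Ifi35, Eif2ak2, Ifit2 and Oas1a, against 9.55% of all genes with an entry. A match of letters is not a shown binding site.

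The RNA and DNA sensors were uneven. LGP2, the product of Dhx58, is a helicase that modulates RIG-I and MDA5. Dhx58 read 4.40 on the day 0 array, then 5.56 and 5.85 (day 2), 5.53 and 5.23 (day 4) and 5.85, 6.28, 5.41 and 5.01 (day 6) in KO cells. On wt arrays it read 5.53 on the day 0 array, then 9.08 and 8.73 (day 2), 8.33 and 8.40 (day 4) and 8.09, 6.17, 8.69 and 9.49 (day 6). The mean difference was -2.89 ± 0.34 (SE; adjusted p 1.07e-06), and KO day 6 replicate 2 (6.28) lay just above wt day 6 replicate 2 (6.17). Rigi differed by -0.61 ± 0.20 (SE; adjusted p 0.0226) over the mean of the days but passed the threshold at no single day, with co-culture medians of 7.39 in KO cells and 8.13 in wt cells. Without wt day 6 replicate 2 it passed at day 6, with -0.72 ± 0.23 (SE; adjusted p 0.0239), against -0.41 ± 0.27 (SE) with it. Zbp1, a sensor of Z-form nucleic acid, had a difference of 0.20 ± 0.15 (SE; adjusted p 0.325), and a second, dimmer probe gave -0.91 (adjusted p 0.0157). Ifih1, which encodes MDA5, was detected on no array.

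The 3 tested IFIT genes, which encode proteins that bind foreign RNA, had differing calls. Ifit3 read 5.42 on the day 0 array, then 8.00 and 7.75 (day 2), 8.01 and 8.02 (day 4) and 7.88, 9.75, 8.24 and 7.72 (day 6) in KO cells. In wt cells Ifit3 read 8.89 on the day 0 array, then 12.34 and 11.89 (day 2), 11.84 and 11.57 (day 4) and 11.62, 9.19, 11.82 and 12.63 (day 6). Its mean difference was -3.62 ± 0.38 (SE; adjusted p 2.09e-07), or 12.3-fold, with an overlap only because KO day 6 replicate 2 (9.75) lay above wt day 6 replicate 2 (9.19).

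Ifit2 read 7.77 on the day 0 array, then 8.73 and 8.57 (day 2), 8.94 and 8.78 (day 4) and 8.71, 9.73, 9.49 and 9.16 (day 6) on KO arrays. On wt arrays Ifit2 read 7.47 on the day 0 array, then 8.92 and 8.85 (day 2), 8.52 and 8.59 (day 4) and 8.06, 7.38, 8.25 and 9.01 (day 6). It was higher in KO cells at day 6 (1.09 ± 0.25, SE; adjusted p 0.00247) and at 0.83 ± 0.23 (SE) without wt day 6 replicate 2, and it passed the threshold at neither day 2 nor day 4, where the differences were -0.24 ± 0.36 and 0.31 ± 0.36 (SE). The change of that difference between day 2 and day 6 was 1.33 ± 0.44 (SE) with an adjusted p of 1. Ifit1 was detected on no KO array and on 2 wt co-culture arrays, and its difference was -0.06 ± 0.15 (SE; adjusted p 0.797).

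Of the OAS family, which makes the activator of the RNA-degrading RNase L, and PKR, 5 of 7 genes were tested and 4 were lower in KO cells. Oasl1 and Oasl2 are OAS-like members. Oasl1 was detected on no KO array (4.15 to 4.85 in co-culture) and read 5.43 to 7.01 on the wt co-culture arrays, at least 3.92-fold lower in KO cells (adjusted p 3.68e-08). Oas2 was detected on 1 KO and 7 wt co-culture arrays and was at least 2.48-fold lower (adjusted p 0.00011). Its day 6 call (adjusted p 0.0231) was lost without KO day 6 replicate 2 (adjusted p 0.054).

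Oasl2 had a median of 7.26 (6.32 to 8.28) on KO arrays and 9.43 (6.57 to 10.18) on wt arrays, a difference of -2.10 ± 0.39 (SE; adjusted p 0.000182). Oas1b was at or near background in both genotypes and at least 1.27-fold lower. Eif2ak2, which encodes the kinase PKR, gave -0.43 ± 0.17 (SE; adjusted p 0.0538) over the mean of the days, -0.55 with an adjusted p of 0.000106 without wt day 6 replicate 2, and -0.46 with an adjusted p of 0.0436 without KO day 6 replicate 2. At day 6 it was -0.24 (adjusted p 0.552), and -0.58 (adjusted p 0.00281) without wt day 6 replicate 2.

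All 6 Mx proteins and other antiviral effectors were lower in KO cells. Rsad2 encodes viperin, which makes a chain-terminating nucleotide, and Cmpk2 is its genomic neighbour. Rsad2 was detected on no KO array, with 4.13 on the day 0 array, then 4.28 and 4.19 (day 2), 4.19 and 4.16 (day 4) and 4.17, 4.53, 4.44 and 4.28 (day 6). The wt arrays gave 6.24 on the day 0 array, then 8.65 and 8.20 (day 2), 8.35 and 8.21 (day 4) and 8.19, 6.49, 7.76 and 8.88 (day 6). Every wt array lay above every KO array, day 0 included, and KO signal was at least 11.7-fold lower over the mean of the days (adjusted p 1.54e-10).

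Cmpk2 was likewise undetected in KO cells, at 4.92 on the day 0 array, then 4.33 and 4.66 (day 2), 4.27 and 4.31 (day 4) and 4.46, 4.53, 4.32 and 4.50 (day 6). In wt cells it was undetected at day 0 and detected on all 8 co-culture arrays, with 4.88 on the day 0 array, then 8.04 and 7.86 (day 2), 7.52 and 7.55 (day 4) and 7.21, 5.71, 7.58 and 8.25 (day 6). The KO signal was at least 7.48-fold lower (adjusted p 7.12e-09), and the co-culture groups did not overlap.

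Mx2, a dynamin-like GTPase against viruses, read 4.59 on the day 0 array, then 5.00 and 4.66 (day 2), 4.25 and 4.76 (day 4) and 5.09, 4.52, 4.46 and 4.24 (day 6) in KO cells. It read 4.45 on the day 0 array, then 8.37 and 8.34 (day 2), 7.99 and 7.63 (day 4) and 7.60, 5.06, 8.00 and 8.42 (day 6) in wt cells. Mx2 was detected on 1 KO co-culture array and on all 8 wt ones, and was at least 8.53-fold lower in KO cells (adjusted p 4.93e-07). KO day 6 replicate 1 (5.09) lay just above wt day 6 replicate 2 (5.06).

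Mx1 stayed near background. Its KO arrays read 4.54 on the day 0 array, then 4.14 and 4.15 (day 2), 4.23 and 4.37 (day 4) and 4.33, 4.34, 4.22 and 4.82 (day 6). Its wt arrays read 4.16 on the day 0 array, then 4.60 and 4.55 (day 2), 4.94 and 4.22 (day 4) and 4.53, 4.92, 5.56 and 5.64 (day 6). Mx1 was detected on no KO and 3 wt co-culture arrays, and it passed the threshold at day 6 (at least 1.46-fold lower, adjusted p 0.0277) and over the mean of the days (at least 1.09-fold lower, adjusted p 0.0427) but not at day 2 or day 4. Without KO day 6 replicate 2 it passed neither at day 6 (adjusted p 0.0624) nor over the mean of the days (adjusted p 0.0601).

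Bst2, which encodes the virus-tethering protein tetherin, read 6.53 on the day 0 array, then 7.21 and 7.91 (day 2), 7.55 and 7.75 (day 4) and 8.16, 8.43, 7.75 and 8.28 (day 6) in KO cells. In wt cells Bst2 read 6.76 on the day 0 array, then 10.65 and 10.71 (day 2), 10.64 and 10.27 (day 4) and 10.07, 8.21, 10.85 and 11.17 (day 6). The difference was -2.61 ± 0.31 (SE; adjusted p 8.94e-07), and wt day 6 replicate 2 (8.21) fell among the KO arrays. Ifitm3, a membrane protein that blocks viral fusion, was bright on all arrays, with medians of 13.85 on KO and 14.41 on wt co-culture arrays, and differed by -0.56 ± 0.096 (SE; adjusted p 7.67e-05).

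Among the interferon-inducible GTPases, Gbp2 was higher and Gbp3 and Igtp lower in KO cells. These proteins attack the vacuoles of intracellular pathogens. Gbp2 read 10.57 on the day 0 array, then 11.65 and 11.49 (day 2), 11.78 and 11.58 (day 4) and 11.62, 12.19, 11.76 and 11.32 (day 6) on KO arrays. The wt arrays read 5.99 on the day 0 array, then 10.01 and 9.93 (day 2), 9.79 and 9.78 (day 4) and 9.57, 8.54, 9.75 and 10.35 (day 6). The KO array was already far above the wt array at day 0, the co-culture groups did not overlap, and the mean difference was 1.89 ± 0.19 (SE; adjusted p 1.11e-07). A second Gbp2 probe gave 1.60.

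Igtp, also called Irgm3, read 5.72 on the day 0 array, then 7.20 and 6.79 (day 2), 7.16 and 6.48 (day 4) and 7.08, 7.04, 6.65 and 5.95 (day 6) in KO cells. In wt cells Igtp read 4.51 on the day 0 array, then 9.85 and 9.47 (day 2), 9.39 and 9.22 (day 4) and 8.83, 6.46, 9.34 and 9.78 (day 6). It was the brighter in KO cells at day 0 and the dimmer there in co-culture, with a mean difference of -2.36 ± 0.35 (SE; adjusted p 1.95e-05). Gbp3 had co-culture medians of 8.22 (7.94 to 9.25) in KO cells and 9.56 (7.05 to 10.89) in wt cells and a difference of -1.27 ± 0.37 (SE; adjusted p 0.0104), past the threshold over the mean of the days and at no single day. Without wt day 6 replicate 2, Gbp3 was lower at day 6 (-1.58 ± 0.30, SE; adjusted p 0.000597), against -0.85 ± 0.50 (SE) with it.

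Irgm1 and Iigp1, which belong to the same GTPase family as Igtp, had differences of 0.05 ± 0.11 (SE; adjusted p 0.754) and 0.00 ± 0.20 (SE; adjusted p 0.993). Irgm1 depended on the probe. Its brightest probe read 12.27 to 13.01 on KO and 12.19 to 12.71 on wt co-culture arrays, and another probe, detected on all 18 arrays, gave -1.54 ± 0.28 (SE; adjusted p 0.000159).

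PARP9, PARP14 and DTX3L are ADP-ribosylation enzymes and their ubiquitin ligase partner. Parp14 read 6.84 on the day 0 array, then 8.51 and 8.37 (day 2), 8.32 and 7.95 (day 4) and 8.07, 8.62, 7.80 and 7.53 (day 6) in KO cells. The wt signal was 5.39 on the day 0 array, then 10.41 and 9.73 (day 2), 9.29 and 9.31 (day 4) and 9.43, 7.29, 9.22 and 9.99 (day 6). Its difference was -1.26 ± 0.29 (SE; adjusted p 0.00152), past the threshold over the mean of the days and at day 2 (-1.63 ± 0.55, SE; adjusted p 0.0416) but not at day 4 (-1.17 ± 0.55, SE) or day 6 (-0.98 ± 0.39, SE). The day 6 value passed without wt day 6 replicate 2 (-1.54 ± 0.24, SE; adjusted p 7.37e-05) and without KO day 6 replicate 2 (-1.18 ± 0.41, SE; adjusted p 0.0369).

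Dtx3l too passed the threshold over the mean of the days and at day 2 but not at day 4 or day 6. On KO arrays it read 6.94 on the day 0 array, then 7.64 and 7.51 (day 2), 7.45 and 6.99 (day 4) and 7.49, 8.31, 7.96 and 7.59 (day 6). On wt arrays it read 6.78 on the day 0 array, then 9.26 and 8.58 (day 2), 8.35 and 8.47 (day 4) and 8.38, 7.47, 8.79 and 9.47 (day 6). At day 6 the difference was -0.69 ± 0.30 (SE), and without wt day 6 replicate 2 it was -1.04 ± 0.25 (SE; adjusted p 0.00408). The mean difference was -1.08 ± 0.23 (SE; adjusted p 0.000677), and its second probe gave 0.21 (adjusted p 0.452), so that this gene too depends on the probe. Parp9 was near background and had a difference of -0.29 ± 0.16 (SE; adjusted p 0.179).

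The remaining tested genes were all lower in KO cells. Lgals3bp, which encodes a secreted galectin-binding glycoprotein, read 6.86 on the day 0 array, then 8.44 and 8.22 (day 2), 8.78 and 8.38 (day 4) and 8.75, 9.76, 9.18 and 8.95 (day 6) in KO cells. Its wt signal was 8.15 on the day 0 array, then 12.05 and 11.90 (day 2), 11.84 and 11.94 (day 4) and 11.73, 10.90, 12.58 and 12.96 (day 6). No KO array reached the wt co-culture arrays, and the difference was -3.28 ± 0.23 (SE; adjusted p 6.06e-10), or 9.70-fold.

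Ifi27l2a read 4.84 on the day 0 array, then 6.82 and 6.93 (day 2), 7.33 and 7.66 (day 4) and 7.14, 7.87, 7.50 and 5.00 (day 6) in KO cells. It read 4.29 on the day 0 array, then 10.30 and 9.85 (day 2), 10.22 and 10.27 (day 4) and 9.26, 6.46, 9.90 and 10.52 (day 6) in wt cells. KO day 6 replicate 4 was lower than the other KO co-culture arrays, wt day 6 replicate 2 lay among the KO arrays, and the mean difference was -2.70 ± 0.48 (SE; adjusted p 0.000119). Ifi35 differed by -1.17 ± 0.19 (SE; adjusted p 5.51e-05). Rtp4, a chaperone of receptors, was detected on no KO array and on all 8 wt co-culture arrays, and was at least 3.07-fold lower in KO cells (adjusted p 3.08e-06).

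Complete separation was less common than a call. The 8 KO and 8 wt co-culture arrays did not overlap for 7 genes lower in KO cells (Usp18, Isg15, Trim25, Oasl1, Rsad2, Cmpk2 and Lgals3bp) and for 2 higher (Gbp2 and Irf1), where 8.58% and 8.69% of all features did so. Of the 7, Trim25, Oasl1, Rsad2 and Cmpk2 passed the detection filter through wt arrays. At day 6 alone, the 4 KO and 4 wt arrays did not overlap for 8 genes lower and 2 higher in KO cells, against 12.3% and 13.2% of all features.

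At day 0, before any keratinocyte was present, 1 KO and 1 wt array could be set side by side with no replicate and no test. Of the 36 genes, 8 were at least 2-fold lower in the KO array, 6 at least 2-fold higher and 22 in between, and the median difference was 0.11. Those lower were Ifit3 (5.42 in KO, 8.89 in wt), Oasl1 (4.29 and 7.25), Trim25 (4.14 and 6.88), Isg15 (6.59 and 8.76), Rsad2 (4.13 and 6.24), Lgals3bp (6.86 and 8.15), Usp18 (4.45 and 5.73) and Dhx58 (4.40 and 5.53). Those higher were Gbp2 (10.57 and 5.99), Irf1 (11.63 and 9.51), Parp14 (6.84 and 5.39), Gbp3 (7.46 and 6.08), Igtp (5.72 and 4.51) and Rigi (7.15 and 6.03). Of all features, 8.45% were at least 2-fold lower and 7.30% at least 2-fold higher. Parp14, Gbp3, Igtp and Rigi were thus higher in the KO array at day 0 and lower in KO cells over the co-culture days. All day 0 counts take signals as read, without the bound used elsewhere for undetected genes. For Dhx58 the KO signal (4.40) lay below the lowest detected signal of that array (4.66).

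Keratinocyte co-culture went with higher signal of most of these genes in wt cells. The labels name no insert kept to day 2 without keratinocytes, so co-culture and time in culture cannot be told apart. Between day 2 and day 0, 24 of the 36 genes were higher and 0 lower in wt cells, where 2.1% of all features were higher, and the median change was 2.25. Usp18 changed by 6.02 ± 0.99 (SE; adjusted p 0.00148), Gbp2 by 3.99 ± 0.44 (SE; adjusted p 2.65e-05) and Parp14 by 4.69 ± 0.67 (SE; adjusted p 0.00044). Ifi27l2a and Igtp were undetected in wt cells at day 0 and at least 41.5-fold (adjusted p 0.00538) and at least 31.1-fold (adjusted p 0.00113) higher at day 2. Oasl1, at 7.01 and 6.84 at day 2 against 7.25 at day 0, did not pass the threshold, and neither did Zbp1.

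In KO cells 1 of the 36 genes, Ifitm3, was higher at day 2 than at day 0 (1.16 ± 0.22, SE; adjusted p 0.00608), where 2.91% of all features were. The median change was 0.69, and 30 of the 36 values were above 0. Day 0 is 1 array per genotype, so these tests borrow their spread from the other groups. Without wt day 2 replicate 1, 9 genes were higher in wt cells at day 2 (0.816% of features), and without wt day 2 replicate 2, 13 were (1.03%). Without wt day 6 replicate 2, whose distance from its group adds to the spread shared by all groups, 5 genes passed in KO cells (2.74% of features).

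When the fit used the 12 arrays of the first processing set only, which are all arrays of days 0, 2 and 4 and day 6 replicate 1 of each genotype, 16 genes were higher at day 2 in KO cells (9.05% of features) and 29 in wt cells (5.9%). There, Isg15 was higher at day 2 than at day 0 in KO cells by 1.75 ± 0.21 (SE; adjusted p 0.000439), Ifit3 by 2.45 ± 0.19 (SE; adjusted p 2.97e-05), Oasl2 by 1.67 ± 0.26 (SE; adjusted p 0.00158) and Lgals3bp by 1.47 ± 0.17 (SE; adjusted p 0.000305). The values for Usp18, Trim25, Rsad2, Cmpk2 and Mx2 in KO cells were 0.74, -0.02, 0.10, -0.42 and 0.24, none past the threshold. This fit has 4 residual degrees of freedom, all from the duplicate arrays of days 2 and 4. Its standard errors hold no measured spread of day 0, which has 1 array per genotype.

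Whether the day 2 minus day 0 change itself differed between KO and wt cells depended on the arrays that set the spread. Over all 18 arrays, the difference of the changes had a median of -1.97 over the 36 genes and was below 0 for 34. It passed the threshold for 0 of them (limma), against 0.237% of all features, with 21 at an unadjusted p under 0.05. Without wt day 6 replicate 2, 9 genes passed (0.226% of features lower). Within the first processing set 22 genes passed (1.72% of features lower), among them Usp18 (-5.28 ± 0.55, SE; adjusted p 0.000961), Gbp2 (-2.99 ± 0.17, SE; adjusted p 4.3e-05) and Igtp (-3.88 ± 0.43, SE; adjusted p 0.00135). Ifit3, with -0.77 ± 0.27 (SE; adjusted p 0.181), was not among them. The fit within the first set has 4 residual degrees of freedom. The comparison of the day 2 changes between KO and wt cells was added after values had been seen.

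**Figure D4:**
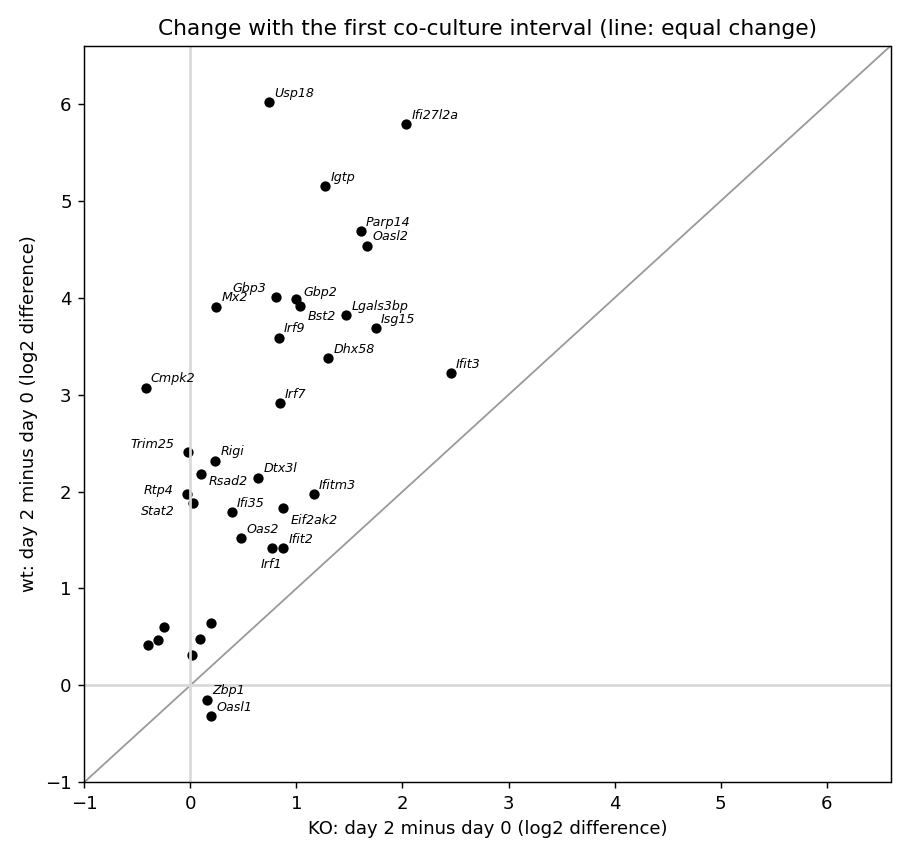
Day 2 minus day 0 log2 difference in KO cells (horizontal) against that in wt cells (vertical) for each of the 36 genes, from 2 arrays at day 2 and 1 at day 0 per genotype, with a line of equal change. Points lie above the line for 34 of the 36 genes; Zbp1 and Oasl1 are the exceptions.

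For the change from day 2 to day 6 no gene of the list passed the threshold. Between day 6 and day 2, limma called 0 of 36 in KO cells (0% of all features) and 0 of 36 in wt cells (0.0386% of features), with 3 at an unadjusted p under 0.05 in each. The median changes were 0.07 in KO cells and -0.60 in wt cells, where 32 of the 36 values were below 0. For the change of the genotype difference between day 2 and day 6, limma called 0 of 36 (0% of features), with 1 at an unadjusted p under 0.05. Day 6 is mostly the second processing set, so set and day are tied in these values.

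The low signal of wt day 6 replicate 2 was broad within the list. It was the lowest of the 4 wt day 6 arrays for 33 of the 36 genes (91.7%), against 20.5% of all features. It lay at least 2-fold below the mean of the other 3 for 27 (75%), against 0.629% of all features. Ifi27l2a was at 6.46 there, against 9.26, 9.90 and 10.52 on the other 3, Usp18 at 8.06 against 10.93, 11.23 and 11.91, and Gbp3 at 7.05 against 9.43, 9.68 and 10.89. Of the 114 features at least 2-fold lower on this array, 27 were among the 36 genes, and 13 more were among 34 tested genes of a list of other interferon-inducible genes, such as Cxcl10 and Irgm2.

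Set against wt day 0, this array ranged from below that level to well above it. Oasl1 read 5.43 on it against 7.25 at day 0, Rsad2 6.49 against 6.24 and Ifit3 9.19 against 8.89. Irf9 read 7.69 against 5.66 and Lgals3bp 10.90 against 8.15. For 24 genes past the threshold and at least 2-fold higher at day 2 in wt cells, a share was taken. It is the array's log2 distance above wt day 0 as a share of that of the mean of the other wt day 6 arrays. The median share was 37.8%, against 93.8% for 313 other features chosen in the same way. The Mapk9 signal of this array was 10.26, among the 10.07, 10.12 and 10.34 of the other wt day 6 arrays. Its Dlk1 signal was 14.34, against 14.37, 14.47 and 14.69. Median differences from the other wt day 6 arrays were -1.40 for the 36 genes and -0.78 for the other interferon-inducible genes. The remaining lists moved less. They gave 0.01 for interferons and receptors, 0.08 for the JAK-STAT relay, -0.35 for nucleic acid sensing and 0.39 for fibroblast markers. Of the 13 sensing genes, 6 were lowest on this array (46.2%, against 20.5% of all features). The label says that it held RNA of 1 insert, as did wt day 6 replicate 3, and why its signal was low was not tested.

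**Figure D5:**
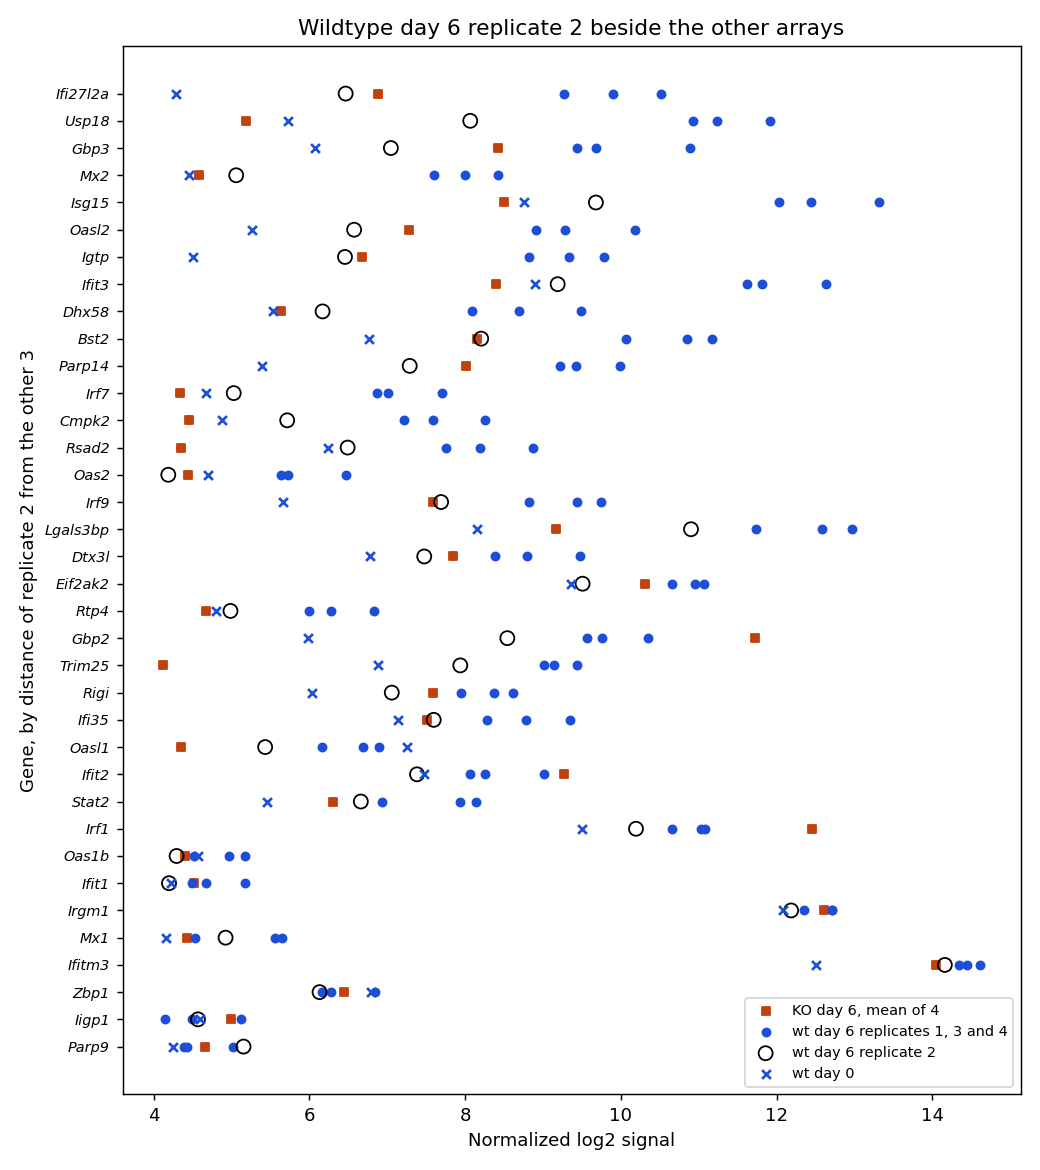
Normalized log2 signal of each of the 36 genes on wt day 6 replicate 2 (rings), beside the other 3 wt day 6 arrays (blue points), the wt day 0 array (crosses) and the mean of the 4 KO day 6 arrays (orange squares), ordered by the distance of replicate 2 from the other 3. For most genes in the upper part the ring lies between day 0 and the other wt day 6 arrays.

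Genes of the pathway outside the list were read in fixed groups. Over the mean of the days, 20% of all features were higher and 18% lower in KO cells, beside which the counts of each group stand. The list of interferons and their receptors had 7 tested genes of 16, of which 3 were higher and 1 lower in KO cells over the mean of the days. Ifnlr1, the interferon lambda receptor subunit, was higher (1.50 ± 0.17, SE; adjusted p 4.66e-07) and so was Ifnar2 (0.55 ± 0.16, SE; adjusted p 0.00988), while Ifngr2 was lower (-0.78 ± 0.094, SE; adjusted p 1.11e-06). The probe of Ifnar1 and those of Ifna2, Ifna4, Ifna5, Ifnk and Ifnl3 were detected on no array, and Ifnb1 was not analysed here.

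The JAK-STAT relay and its brakes had 1 gene higher and 7 lower of 10 tested. Jak1 gave -0.53 ± 0.14 (SE; adjusted p 0.00453), Jak2 -0.70 ± 0.14 (SE; adjusted p 0.000485), Stat3 -0.81 ± 0.11 (SE; adjusted p 6.87e-06), the feedback inhibitor Socs3 -0.94 ± 0.14 (SE; adjusted p 1.47e-05) and Irf2 -0.39 ± 0.074 (SE; adjusted p 0.000292). Pias1, an inhibitor of STAT binding, was higher by 0.74 ± 0.086 (SE; adjusted p 8.21e-07), and Tyk2 (-0.31, adjusted p 0.111) did not pass.

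Of 13 tested genes for nucleic acid sensing upstream of interferon, 1 was higher and 8 were lower. Cgas, which encodes the DNA sensor, was at 6.15 to 7.07 on KO and 9.43 to 10.50 on wt co-culture arrays, and at 7.74 in KO and 10.24 in wt cells at day 0 (mean difference -3.56 ± 0.12, SE; adjusted p 2.06e-14). Sting1, its downstream adaptor, was at least 7.91-fold lower (adjusted p 5.29e-12) and was at 4.28 in KO and 7.26 in wt cells at day 0. Adar, Ikbke and Ticam1 were lower by 1.55, 1.36 and 1.05 on the log2 scale as well, and Irf3 (-0.23, adjusted p 0.159) did not pass. On wt day 6 replicate 2, Sting1 (7.42) lay within the 7.21 to 7.59 of the other wt day 6 arrays, and Cgas (9.43) below their 9.70 to 10.16.

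Among 34 tested genes of the list of other interferon-inducible genes, 15 were lower and 3 higher in KO cells. Ifi207 (-3.44 ± 0.23, SE; adjusted p 2.83e-10), the chemokine Cxcl10 (-3.16 ± 0.26, SE; adjusted p 6.27e-09) and Apol9a (-2.94 ± 0.35, SE; adjusted p 9.8e-07) were lower. Oas1g was at least 6.89-fold (adjusted p 1.42e-08) and Apol9b at least 5.81-fold lower (adjusted p 2.35e-06). The 3 higher were the proteasome activator subunits Psme2 (1.58 ± 0.12, SE) and Psme1 (1.13 ± 0.12, SE) and the GTPase Ifi47 (0.92 ± 0.26, SE). These lists were drawn up with earlier results of the data known, and their medians over the tested genes were 0.14 for interferons and receptors, -0.51 for the relay, -0.90 for sensing and -0.36 for the other inducible genes, against 0.03 over all features.

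Markers of other cells the inserts could hold were mixed over the mean of the days, where 20% of all features were higher and 18% lower in KO cells. Of 5 tested macrophage and leukocyte markers, 1 was higher and 1 lower in KO cells (Cd14, -1.44 ± 0.16, SE), and Lyz2 and Itgam were detected on no array. The log2 of their summed signal was 8.60 to 9.23 on KO arrays and 9.23 to 10.91 on wt arrays, highest on wt day 6 replicate 2. Cd14 made up most of that sum. It read 10.84 there, while Adgre1, Csf1r, Cd3e and Siglech read 4.80, 4.46, 4.31 and 4.25. Of 7 tested mouse keratinocyte markers, 3 were higher and 1 lower (Ivl), and Lor and Epcam were detected on no array, with a summed signal of 9.24 to 10.06 on KO and 9.56 to 10.09 on wt arrays. Of 4 tested endothelial markers, 1 was higher (Flt1, 2.67 ± 0.19, SE) and Emcn was detected on no array. Their summed signals were 8.76 to 9.54 on KO and 6.97 to 7.74 on wt arrays. Flt1 itself read 8.45 to 9.41 on KO and 5.42 to 7.03 on wt arrays, and Cdh5, Kdr and Tek did not pass the threshold. The part of such other cells in the differences of the interferon-stimulated genes was not tested. Of 10 fibroblast markers, 2 were higher (Pdgfrb by 0.53 and Vim by 0.47) and 5 lower in KO cells. Col1a2 was at least 10.4-fold and Thy1 at least 2.29-fold lower, and Pdgfra, Dcn and Fn1 differed by -1.46, -1.32 and -0.48. In bulk RNA fewer cells of a kind and less RNA per cell cannot be told apart. Whether human transcripts from the keratinocyte side reach these mouse probes was not tested.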

How the data were processed

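Mouse whole-genome Illumina bead arrays gave 1 bead intensity and 1 detection p-value per probe in the authors' deposited non-normalized table, and per the file headers the submitters also deposited log2 values, which differ from log2 of quantile-normalized intensities by at most 0.00500. Detection p-values were 2-sided on 6 arrays and were made 1-sided. Intensities were background-corrected from the detection p-values (normexp, offset 16) and quantile-normalized. Probes detected (p under 0.01) on at least 2 arrays were kept (26407 of 45121), and the brightest probe stood for a gene, giving 18128 features (13106 genes and 5022 unnamed probes). The platform annotation gave 34763 probes 1 symbol, 18 several and 10340 none. limma 3.58.1 in R 4.3.3 fitted 1 mean per genotype and day (10 residual degrees of freedom, intensity trend), with Benjamini-Hochberg adjustment over all features. The procedure was tested on simulated data.

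"At least" folds take, in a group with no detection, the higher of the measured value and the lowest detected signal of each array. The members and lists were chosen with earlier results of these data known. Values on every array are given for the 12 genes with the largest genotype difference over the mean of the days, for those that moved the opposite way and for those whose calls differed between days; Igtp, added after its values were seen, is the exception. Replicate numbers were not taken as pairs, since correlations of same-numbered arrays were -0.0088 at day 2, -0.112 at day 4 and 0.110 to 0.567 at day 6. Alternatives covered normalization, filter, probe choice, processing set, replicate block and leaving out each array of days 2, 4 and 6.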

Additional observations from a re-analysis of the deposited data

Results flagged for a closer look

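In the KO day 6 group, replicate 1 stood apart from the other 3 arrays for a pair of OAS-family genes near background. Oas2 read 5.07 there, with the next KO day 6 array at 4.28, and Oasl1 read 4.85, with the next at 4.21. In both cases the gap to the nearest array, as a share of the group's range, exceeded Dixon's 95% critical value for 4 arrays. Chance alone flags about 1 in 20 groups, and 36 genes were examined in each of the KO and wt day 6 groups. No gene exceeded it in the wt day 6 group, although wt replicate 2 was the lowest of the 4 arrays there for 33 of the 36 genes. Replicate 1 is the KO day 6 array that belongs to the first processing set.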

How the results depend on the processing

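Under 27 alternatives no result reversed. At day 6, 13 genes were lower in KO cells within the second processing set (12.3% of all features), against 22 (13.7%). The count higher at day 2 than at day 0 in KO cells was 16 within the first processing set and 0 with median scaling, against 1. Of all 18128 features, 1641, 69 and 527 were higher in these fits, in the same order. The count whose day 2 minus day 0 change differed between KO and wt cells was 22 within the first processing set, and 1 with the processing set as a block, 1 with the replicate block, and 1 without KO day 6 replicates 2 and 4 together, against 0. Leaving out 1 array at a time gave 17 to 27 genes lower in KO cells at day 6 (with 12.7% and 12.1% of all features called in the fits at the low and high end), 13 to 23 at day 4 (6.29% and 9.09%), 14 to 26 at day 2 (6.91% and 9.75%) and 24 to 28 over the mean of the days (16.3% and 17.4%). It gave 2 to 3 higher over the mean of the days (17.8% and 19.2%), 9 to 27 changed at day 2 in wt cells (1.05% and 2.79%), 0 to 5 in KO cells (1.14% and 4.13%), 0 to 1 between day 6 and day 2 in KO cells (0% and 10.9%, the 10.9% without KO day 6 replicate 1), and 0 to 9 for the difference of the day 2 changes (0.0552% and 0.37%). The fewer arrays in the set-wise fits are part of their construction, and the causes of the other shifts were not tested. With the replicate block, 21 genes were lower in KO cells at day 6, 22 at day 4, 23 at day 2 and 27 over the days together. Of all features, 5337, 3623, 3801 and 7030 were called there in either direction, against 5152, 3458, 3619 and 6877 without the block. At day 6, 4 of 8 arrays correlated best with their own number. With the KO day 4 numbers crossed, the counts at days 6, 4 and 2 were 21, 21 and 23. In that fit 5449, 3748 and 3901 of all features were called in either direction. Median scaling moved the median of all features to 0.40 for day 6 minus day 2 in KO cells and to 0.28 in wt cells, and the share of higher calls over the mean of the days to 37.7%, against 52.7%; at days 2, 4 and 6 it was 30.7%, 38.1% and 43.1%, against 49.9%, 51.3% and 52.0%. Signals near background limit Mx1, Oas1b, Ifit1, Parp9 and Iigp1, and day 0 has 1 array per genotype. The day 0 arrays were never left out.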
